A study of Mus musculus with 35 samples.

Results

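The genes described here are 58 genes of mitosis, the spindle and the kinetochore, picked by name from the 55401 gene identifiers of a messenger RNA count table. They cover the chromosomal passenger complex, the spindle checkpoint, the kinases and cyclins of mitotic entry, centromere and kinetochore proteins, mitotic kinesins, spindle and cytokinesis proteins, regulators of anaphase and cohesion, chromosome structure proteins and 2 transcription factors. Messenger RNA was sequenced from CD45+ cells that had been isolated by immunopanning, that is, captured on a dish coated with an anti-CD45 antibody, from the digested whole brain of wild-type C57BL/6 mice. The mice were 6 days old (P6), 15 days old (P15) or 8 weeks old (8W). At P6 there were 4 females and 6 males, and at P15 and at 8 weeks there were 6 of each sex. A further P6 female, taken to be the mouse that the study left out as an outlier, is not in these groups. All groups were wild type and differed in the labels by age and sex alone. CD45 is also carried by monocytes, macrophages and other blood cells, so each library is a bulk sample that can hold those cells beside microglia.

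Cells that enter mitosis build up a common set of transcripts in the G2 and M phases of the cell cycle and lose most of them soon after division. Cyclin-dependent kinase 1 with its cyclins drives entry, the kinetochore ties chromosomes to spindle microtubules, the checkpoint holds anaphase until each chromosome is attached, and the anaphase-promoting complex then marks securin and cyclin B for destruction so that separase can open cohesin. Microglia, the resident macrophages of the brain, expand by division in the first postnatal weeks and renew slowly in the adult.

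Many G2/M genes share 2 promoter elements, which is why their promoters are shown first. The cell cycle genes homology region (CHR; searched as TTTGAA or TTCGAA) is the element through which the MuvB complex, alone or with B-MYB and FOXM1, acts on such genes, and CCAAT boxes bind the factor NF-Y. Both strands were searched in RefSeq promoter windows that ran from 250 bases before to 50 bases after the annotated start (build GRCm38.p6). TTCGAA reads the same on both strands, and CHR letters and a CCAAT box can share only letters at their ends. Windows were held for 48 of the 58 genes. CHR letters occurred in 38 of these 48 genes (79.2%), against 5854 of the 27025 genes in the table (21.7%). They lay between 100 bases before the start and the end of the window in 37 of 48 genes (77.1%), against 9.87% of all genes. A CCAAT box on either strand occurred in 72.9% of the 48 genes and in 41.1% of all genes, and CHR letters together with a CCAAT box in 1 window occurred in 66.7% and 8.61%. A match is a description of these letters and was not tested as a binding site. The 6 stretches below run from 130 bases before to 50 after the start and show cyclin B1, which had the deepest fall of all 58 genes, securin (Pttg1), the 1 gene with a higher mean at 8 weeks than at P6, and the G2/M genes Cdk1, Ccnb2, Plk1 and Cdc20; capitals mark CHR letters and CCAAT boxes on either strand.
Ccnb1 (chr13:100786437-100786616, minus strand): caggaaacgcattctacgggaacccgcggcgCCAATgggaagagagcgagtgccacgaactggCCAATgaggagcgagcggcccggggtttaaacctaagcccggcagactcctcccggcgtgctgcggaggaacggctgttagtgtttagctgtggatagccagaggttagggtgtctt
Ccnb2 (chr9:70421505-70421684, minus strand): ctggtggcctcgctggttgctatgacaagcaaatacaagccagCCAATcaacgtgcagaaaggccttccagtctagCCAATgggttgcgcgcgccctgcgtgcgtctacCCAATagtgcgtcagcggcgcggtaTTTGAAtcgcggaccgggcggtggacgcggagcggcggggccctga
Cdk1 (chr10:69352863-69353042, minus strand): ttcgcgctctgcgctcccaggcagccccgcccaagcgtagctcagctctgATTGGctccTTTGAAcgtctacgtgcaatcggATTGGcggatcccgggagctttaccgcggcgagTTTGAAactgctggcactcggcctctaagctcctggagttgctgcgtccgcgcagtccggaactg
Plk1 (chr7:122159305-122159484, plus strand): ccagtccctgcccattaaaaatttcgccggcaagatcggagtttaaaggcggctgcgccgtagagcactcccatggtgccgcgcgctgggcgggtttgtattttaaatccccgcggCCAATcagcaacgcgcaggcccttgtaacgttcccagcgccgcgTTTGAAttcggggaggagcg
Cdc20 (chr4:118437294-118437473, minus strand): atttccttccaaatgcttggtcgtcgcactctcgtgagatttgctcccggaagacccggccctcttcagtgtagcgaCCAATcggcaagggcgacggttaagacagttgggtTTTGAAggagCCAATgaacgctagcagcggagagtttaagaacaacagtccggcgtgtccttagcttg
Pttg1 (chr11:43425932-43426111, minus strand): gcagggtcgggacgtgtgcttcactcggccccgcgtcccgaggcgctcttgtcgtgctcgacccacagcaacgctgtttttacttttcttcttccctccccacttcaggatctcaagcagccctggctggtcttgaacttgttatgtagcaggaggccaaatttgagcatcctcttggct

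Cdk1, Ccnb2, Plk1 and Cdc20 each carry CHR letters near the start and at least 1 CCAAT box. The Ccnb1 stretch holds 2 CCAAT boxes and no CHR letters, and the Pttg1 window holds neither. That window (43425932 to 43426231) lies inside Pttg1 as GENCODE M21 places it on the minus strand (43420250 to 43426251). Bases before the GENCODE start of Pttg1 were not searched. Among genes that kept less than 10% of their P6 level at 8 weeks, 31 of 38 with a window held CHR letters. Among those that kept 10% or more, 7 of 10 did. A CCAAT box occurred in 30 of the 38 and 5 of the 10, and both elements in 1 window in 27 and 5. These splits were not tested. No window was held for Incenp, Cdc25c, Cdca2, Foxm1, Tpx2, Ccna2, Ska1, Aurkb, Spc24 and Kif20a.

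Libraries held 23316107 to 38965078 counts assigned to genes. Levels are given as counts per 1000000 counts (CPM) after scaling for library composition, and changes as log2 fold changes with their standard errors from 1 fit of edgeR's quasi-likelihood model to all 17612 genes that passed the filter on low counts, which all 58 mitotic genes passed. A gene was called when it changed by more than 2-fold at a Benjamini-Hochberg false discovery rate (FDR) below 0.05 over all 17612 genes (edgeR's glmTreat). The labels name individual mice, and p-values measure the spread between mice of a group. The pair of libraries closest to each other within a group still differed by far more than counting noise, with a chi-square of 13.1 per gene, so each was kept as a separate mouse. Markers of microglia (8 of 8 listed genes, Tmem119 and P2ry12 among them) were detected at every age, and 6 of the 8 were called higher at 8 weeks than at P6, where 11.5% of all genes tested were.

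Mitotic transcripts fell steeply in both intervals. Summed over the 58 genes, they made up 2534 to 3269 CPM in the P6 mice (median 2859), 564 to 766 CPM at P15 (median 622) and 228 to 281 CPM at 8 weeks (median 258), and the 3 ranges did not overlap. By P15, 55 of 58 genes were called lower than at P6 and 0 higher, where 4.85% of all genes tested were called lower. From P15 to 8 weeks 46 of 58 were called lower, against 3.07% of all genes, and over the whole span 55 of 58, against 12.4%. The median log2 fold change of the 58 was -2.45 in the first interval, -2.28 in the second and -4.76 in all, while the medians over all genes were -0.01, 0.02 and 0.04. Every P6 mouse lay above every P15 mouse for 55 of the 58 genes (7.72% of all genes), every P15 mouse above every 8-week mouse for 39 (1.72%), and every P6 mouse above every 8-week mouse for 57 (14.8%). Of the 17612 genes tested, the 100 that fell furthest from P6 to 8 weeks include 9 of the mitotic genes and the 500 that fell furthest include 47. In bulk libraries, fewer dividing cells and less of these transcripts per cell cannot be told apart.

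**Figure D1:**
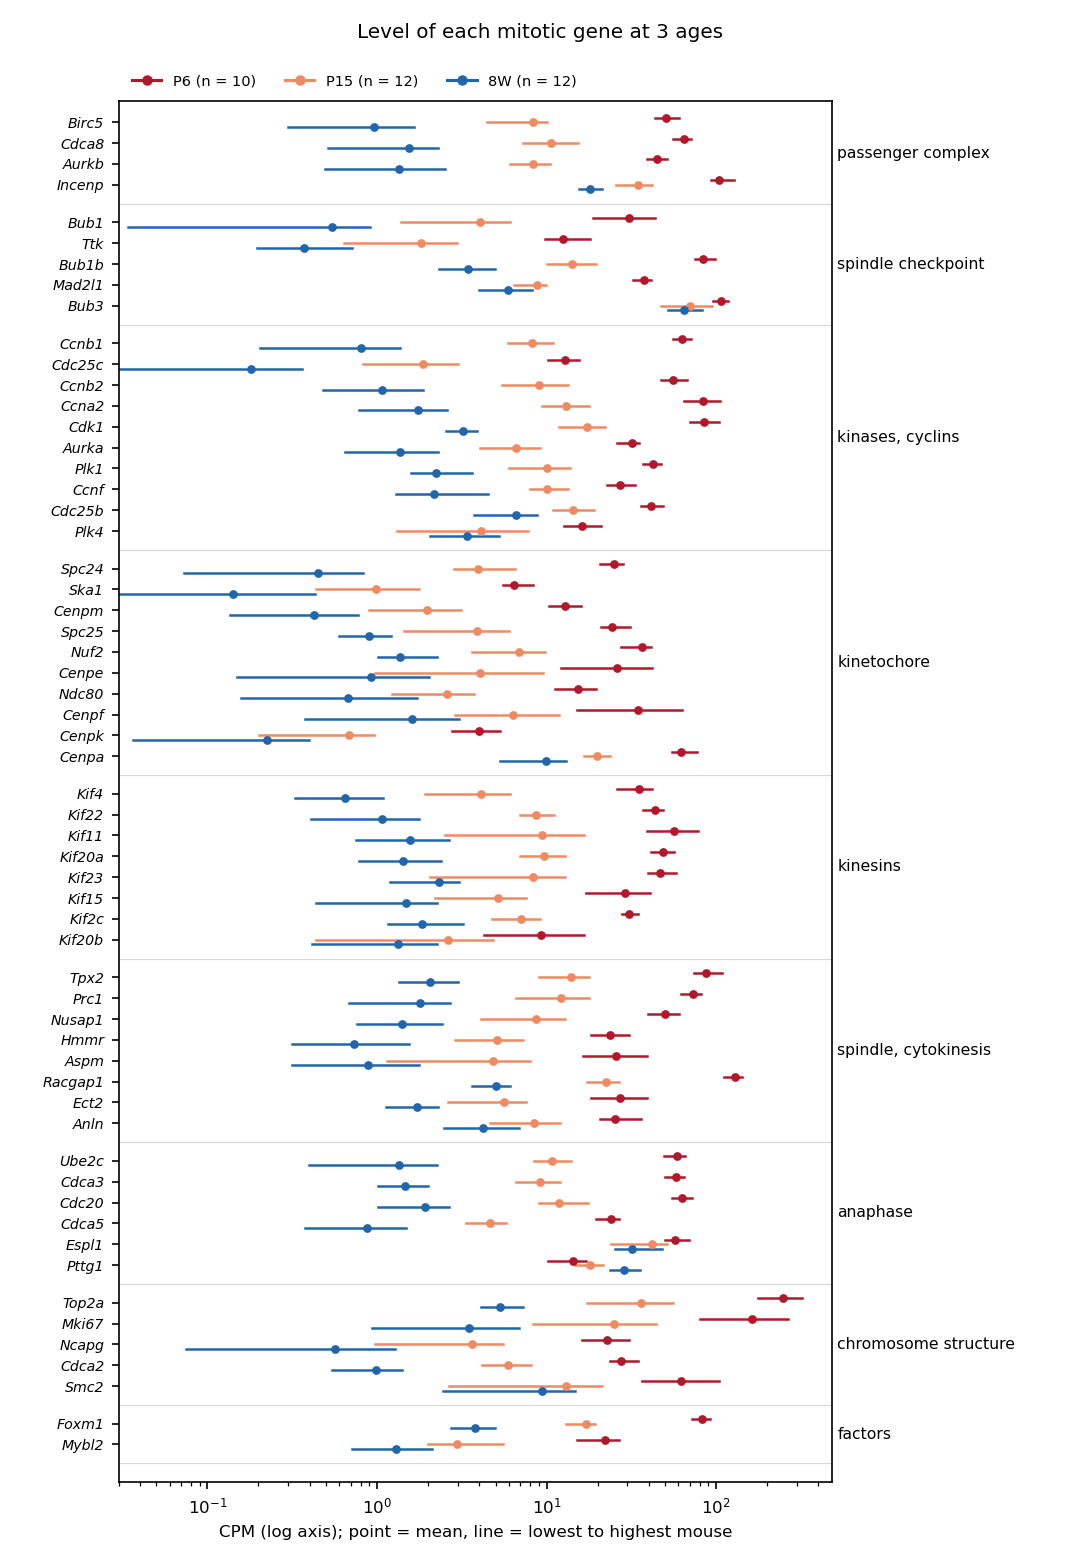
Level of each of the 58 mitotic genes in CPM (log axis) at P6 (n = 10), P15 (n = 12) and 8 weeks (n = 12), grouped by role, where points are means and lines run from the lowest to the highest mouse (lines that reach the left edge include mice at 0). For 57 genes the P6 range lies to the right of the 8-week range, and Pttg1 runs the other way.

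In the chromosomal passenger complex, which corrects faulty chromosome attachments and later directs cytokinesis, all 4 genes were called lower at 8 weeks but by unequal amounts. Birc5 (survivin, which docks the complex at the centromere) ranged over 43.8 to 60.5 CPM (median 50.7) at P6, 4.46 to 10.01 CPM (median 8.58) at P15 and 0.297 to 1.65 CPM (median 0.881) at 8 weeks. The groups did not overlap, and it fell by 5.73 ± 0.20 on the log2 scale from P6 to 8 weeks (FDR = 1e-20). Cdca8 (borealin) ranged over 55.7 to 70.7 CPM (median 65.5) at P6, 7.31 to 15.4 CPM (median 10.9) at P15 and 0.512 to 2.28 CPM (median 1.64) at 8 weeks and fell by 5.39 ± 0.16 (FDR = 2.46e-22), and the kinase Aurkb fell by 5.08 ± 0.16 (FDR = 1.71e-21). Incenp, the scaffold that holds and activates Aurora B, kept far more. Its mice ranged over 93.0 to 128 CPM (median 99.8) at P6, 25.8 to 41.7 CPM (median 35.5) at P15 and 15.5 to 21.3 CPM (median 17.6) at 8 weeks, again without overlap between ages, and it fell by 2.52 ± 0.08 (FDR = 5.58e-18).

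The balance within the complex differed between ages. Per kilobase of exon, Incenp stood at 1.70 ± 0.144 times the mean of its 3 partners at P6 (SD, n = 10), 3.36 ± 0.512 times at P15 (n = 12) and 13.3 ± 5.35 times at 8 weeks (n = 12), and the P6 range (1.52 to 1.95) lay below both later ranges. Among the partners the ranges overlapped. Birc5 over Aurkb was 0.993 ± 0.105 at P6 and 0.673 ± 0.389 at 8 weeks, and Cdca8 over Aurkb was 0.827 ± 0.0730 and 0.755 ± 0.383. These ratios are descriptions of levels per exon length within a library, and no test was run on them.

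Spindle checkpoint genes covered the widest span of any role beside the anaphase genes. Bub1, the kinase that recruits checkpoint proteins to kinetochores, ranged over 18.9 to 43.7 CPM (median 28.2) at P6, 1.38 to 6.08 CPM (median 4.05) at P15 and 0.0341 to 0.905 CPM (median 0.523) at 8 weeks. It fell by 5.72 ± 0.27 from P6 to 8 weeks (log2, FDR = 2.58e-17), and 1 of 12 libraries at 8 weeks was at or under 3 counts. Ttk (MPS1, the kinase that starts checkpoint signalling) ranged over 9.82 to 18.1 CPM (median 11.4) at P6, 0.641 to 2.95 CPM (median 1.89) at P15 and 0.196 to 0.717 CPM (median 0.307) at 8 weeks and fell by 5.02 ± 0.23 (FDR = 2.77e-17). Bub1b (BUBR1), part of the complex that inhibits the anaphase-promoting complex, fell by 4.60 ± 0.12 to 4.09% of its P6 mean. Mad2l1 (MAD2), its partner in that complex, fell by 2.66 ± 0.10 and kept 15.8%.

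Bub3, which carries Bub1 and Bub1b to kinetochores, was not called. Its mice ranged over 95.5 to 117 CPM (median 108) at P6, 47.3 to 94.7 CPM (median 70.2) at P15 and 52.2 to 82.4 CPM (median 63.3) at 8 weeks, so that every P6 mouse lay above every P15 and 8-week mouse while P15 and 8 weeks overlapped, and its log2 fold change from P6 to 8 weeks was -0.73 ± 0.08 (FDR = 1 against the 2-fold threshold, 4.8e-10 against no change). Per kilobase of exon, Bub3 was 0.776 ± 0.0519 times Bub1b at P6, 3.14 ± 0.885 times at P15 and 11.96 ± 3.10 times at 8 weeks, with ranges that did not overlap. Mad2l1 over Bub1b moved from 0.228 ± 0.0143 to 0.324 ± 0.0533 and 0.916 ± 0.267.

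All 10 kinases, cyclins and phosphatases of mitotic entry were called lower at 8 weeks. Cyclin B1 (Ccnb1), the partner of Cdk1 at mitotic entry, ranged over 55.4 to 71.3 CPM (median 62.3) at P6, 5.94 to 10.9 CPM (median 8.38) at P15 and 0.204 to 1.37 CPM (median 0.766) at 8 weeks. It fell by 6.27 ± 0.21 on the log2 scale (FDR = 2.53e-21), to 1.29% of its P6 mean, the deepest fall of the 58. Cdc25c, a phosphatase that switches Cdk1 on, ranged over 10.2 to 15.6 CPM (median 12.5) at P6, 0.829 to 2.997 CPM (median 1.91) at P15 and 0 to 0.360 CPM (median 0.180) at 8 weeks and fell by 6.13 ± 0.26 (FDR = 2.43e-18), with 3 of 12 libraries at 8 weeks at or under 3 counts. Cyclin B2 kept 1.91% and cyclin A2 2.10%, whereas Cdk1 itself, the kinase they activate, kept 3.77%. Aurka and Plk1, kinases of centrosome maturation and mitotic entry, kept 4.29% and 5.22%.

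Per kilobase of exon, Ccnb1 over Cdk1 went from 0.875 ± 0.141 at P6 to 0.561 ± 0.122 at P15 and 0.298 ± 0.151 at 8 weeks, and Ccnb2 over Cdk1 from 2.12 ± 0.124 to 1.66 ± 0.339 and 1.09 ± 0.468. The 2 largest residues in this role were Cdc25b, a second Cdk1 phosphatase, at 15.8% and Plk4, the kinase that licenses centriole duplication, at 20.9%. Plk4 had the smallest fall of the role. It ranged over 12.7 to 20.996 CPM (median 15.2) at P6, 1.32 to 7.79 CPM (median 4.02) at P15 and 2.06 to 5.21 CPM (median 3.26) at 8 weeks, with the 8-week range inside that of P15, and it fell by 2.21 ± 0.17 from P6 to 8 weeks (FDR = 5.48e-08). Cyclin F (Ccnf), an adaptor of a ubiquitin ligase, kept 7.99%, and Plk4 over Plk1 per kilobase went from 0.124 ± 0.0268 at P6 to 0.545 ± 0.227 at 8 weeks.

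Centromere and kinetochore genes were all called lower at 8 weeks (10 of 10). Spc24, a subunit of the NDC80 complex that grips microtubules, ranged over 20.8 to 28.2 CPM (median 24.95) at P6, 2.85 to 6.51 CPM (median 3.83) at P15 and 0.0728 to 0.829 CPM (median 0.448) at 8 weeks and fell by 5.83 ± 0.23 (log2, FDR = 4.12e-19). Ska1, which keeps that grip on shrinking microtubules, ranged over 5.51 to 8.32 CPM (median 5.90) at P6, 0.436 to 1.77 CPM (median 0.915) at P15 and 0 to 0.432 CPM (median 0.0892) at 8 weeks and fell by 5.61 ± 0.36 (FDR = 1.57e-13), with 7 of 12 libraries at 8 weeks at or under 3 counts. The other 3 subunits of the NDC80 complex, Ndc80, Nuf2 and Spc25, kept 4.41%, 3.78% and 3.68%. Their proportions overlapped between ages: Spc25 over Nuf2 per kilobase was 1.34 ± 0.164 at P6 and 1.38 ± 0.512 at 8 weeks, and Ndc80 over Nuf2 was 0.412 ± 0.0564 and 0.513 ± 0.360. Cenpa, the histone H3 variant that marks centromeres through many divisions, had the smallest fall. It ranged over 55.0 to 76.7 CPM (median 59.2) at P6, 16.5 to 23.6 CPM (median 19.4) at P15 and 5.33 to 13.1 CPM (median 9.80) at 8 weeks, without overlap between ages, and fell by 2.65 ± 0.10 (FDR = 2.19e-16).

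The 8 mitotic kinesins, motors that move or cross-link spindle microtubules, were all called lower at P15 and at 8 weeks. Kif4, the chromokinesin that shapes the midzone, had the largest fall of the 58 in the first interval, 3.08 ± 0.16 on the log2 scale (FDR = 2.42e-13). It ranged over 26.0 to 41.6 CPM (median 35.96) at P6, 1.92 to 6.09 CPM (median 4.39) at P15 and 0.330 to 1.08 CPM (median 0.624) at 8 weeks. Kif22, which pushes chromosome arms outward, ranged over 37.0 to 48.7 CPM (median 44.1) at P6, 6.98 to 11.02 CPM (median 8.75) at P15 and 0.410 to 1.77 CPM (median 1.15) at 8 weeks and fell by 5.37 ± 0.17 in all (FDR = 2.09e-21). Kif11, the motor that separates the spindle poles, kept 2.75%. The smallest fall was that of Kif20b, a motor of cytokinesis, with 4.25 to 16.7 CPM (median 8.65) at P6, 0.439 to 4.83 CPM (median 2.88) at P15 and 0.413 to 2.25 CPM (median 1.55) at 8 weeks. P6 overlapped with P15 and P15 with 8 weeks, and Kif20b fell by 2.65 ± 0.28 from P6 to 8 weeks (FDR = 8.24e-07). Its call at P15 (FDR = 0.0166) was lost without P6 female 3 (FDR = 0.0628).

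Spindle and cytokinesis genes were likewise all called lower (8 of 8 at each of P15 and 8 weeks against P6). Tpx2, which brings Aurora A to the spindle, ranged over 73.9 to 108 CPM (median 84.0) at P6, 9.06 to 17.8 CPM (median 14.4) at P15 and 1.35 to 3.02 CPM (median 2.09) at 8 weeks and fell by 5.40 ± 0.14 (log2, FDR = 3.53e-24). Prc1, which bundles the microtubules of the midzone, ranged over 62.2 to 81.2 CPM (median 73.5) at P6, 6.62 to 17.7 CPM (median 11.6) at P15 and 0.683 to 2.69 CPM (median 1.79) at 8 weeks and fell by 5.36 ± 0.14 (FDR = 1.17e-23). Racgap1, a subunit of the centralspindlin complex that positions the cleavage furrow, was the most abundant of the role in CPM at P6, 130.1 ± 9.64 (SD, n = 10), and kept 3.85%, while Kif23, the motor in the same complex, kept 4.98%. Anln (anillin, which ties actin and septins into the contractile ring) had the smallest fall. It ranged over 20.6 to 36.1 CPM (median 25.3) at P6, 4.64 to 11.99 CPM (median 8.64) at P15 and 2.47 to 6.87 CPM (median 4.001) at 8 weeks and fell by 2.55 ± 0.17 (FDR = 1.75e-10).

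Among regulators of anaphase and cohesion, 4 of 6 genes were called lower and 2 were not. Ube2c, the ubiquitin-conjugating enzyme of the anaphase-promoting complex, ranged over 49.2 to 66.0 CPM (median 59.3) at P6, 8.45 to 13.9 CPM (median 10.7) at P15 and 0.396 to 2.25 CPM (median 1.39) at 8 weeks and fell by 5.44 ± 0.18 (log2, FDR = 3.34e-21). Cdca3, an adaptor in the destruction of the mitotic brake Wee1, ranged over 50.1 to 65.1 CPM (median 57.9) at P6, 6.59 to 11.99 CPM (median 8.99) at P15 and 1.02 to 2.001 CPM (median 1.44) at 8 weeks and fell by 5.33 ± 0.12 (FDR = 7.65e-25). Cdc20, the activator of the anaphase-promoting complex, kept 3.03%, and Cdca5 (sororin, which guards cohesin until anaphase) kept 3.66%. The 2 others form 1 pair: Espl1, or separase, is the protease that cuts cohesin, and Pttg1, or securin, is its inhibitor.

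Espl1 ranged over 49.9 to 68.9 CPM (median 56.7) at P6, 23.9 to 51.3 CPM (median 41.2) at P15 and 25.2 to 47.7 CPM (median 30.5) at 8 weeks. P15 overlapped with both other ages, and the log2 fold change from P6 to 8 weeks was -0.85 ± 0.11 (FDR = 1 against 2-fold, 1.99e-08 against no change). With neural or microglia markers as a covariate Espl1 was called lower in edgeR's 2-fold test (-1.67, FDR = 0.00202, and -1.70, FDR = 0.00911). The mean log2 CPM of the microglia markers was 9.34 to 10.22 at P6 and 10.31 to 11.44 at P15. Without overlap there, the change of Espl1 with age and with that covariate cannot be cleanly separated. Pttg1 ran the other way, with 10.3 to 17.2 CPM (median 14.2) at P6, 14.7 to 21.7 CPM (median 18.3) at P15 and 23.8 to 35.4 CPM (median 27.8) at 8 weeks. Every 8-week mouse lay above every P6 and P15 mouse, and the log2 fold change was 1.01 ± 0.09, which did not pass the 2-fold threshold (FDR = 0.625) but differed from no change (FDR = 9.93e-12). Of the 58 genes it was the 1 with a higher mean at 8 weeks than at P6. Per kilobase of exon, Pttg1 over Espl1 was 1.10 ± 0.166 at P6 (0.860 to 1.32), 1.94 ± 0.392 at P15 (1.59 to 2.88) and 4.03 ± 0.754 at 8 weeks (3.17 to 5.75), 3 ranges that did not overlap. No annotated exon of another gene overlaps those of Pttg1 on its strand, and reads from near-identical copies elsewhere in the genome were not examined.

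**Figure D2:**
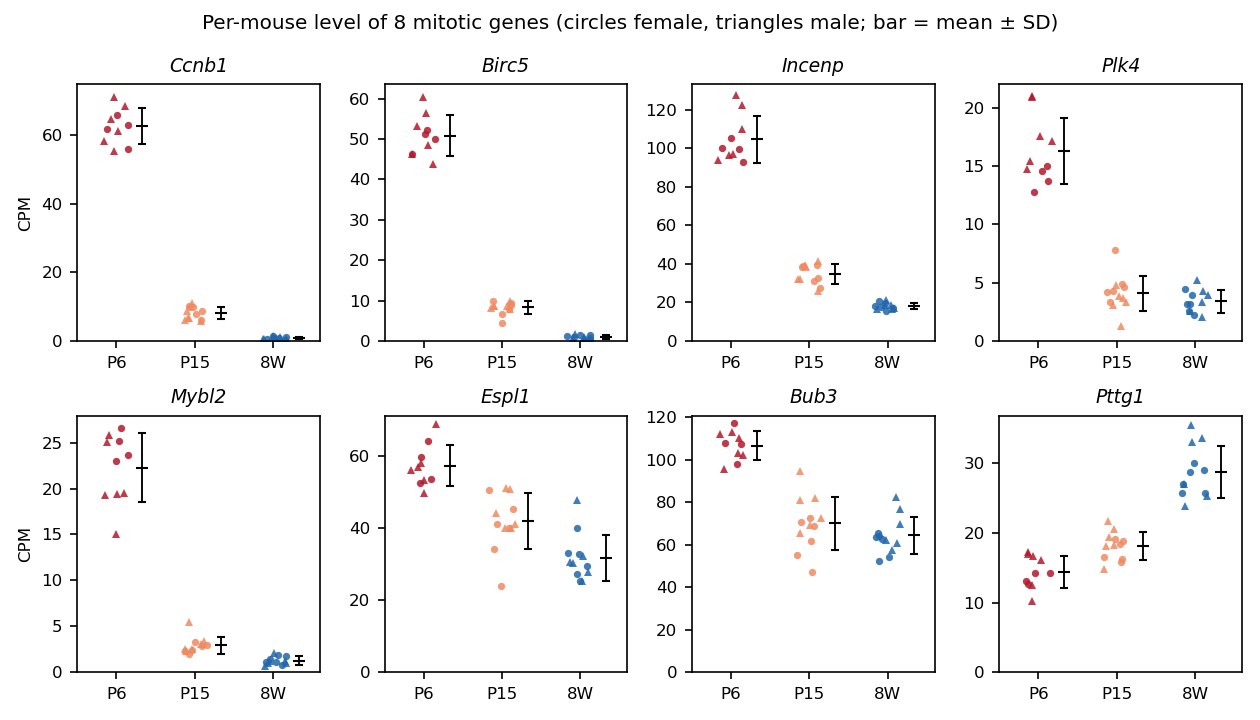
CPM in each mouse (linear axis from 0) for Ccnb1, Birc5, Incenp, Plk4, Mybl2, Espl1, Bub3 and Pttg1 at P6, P15 and 8 weeks, with circles for females, triangles for males and black bars for the mean ± SD. Ccnb1 and Birc5 are near 0 at 8 weeks, Incenp, Espl1 and Bub3 are not, and Pttg1 is highest at 8 weeks.

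Chromosome structure genes were all called lower at 8 weeks (5 of 5). Top2a, the topoisomerase that untangles sister chromatids, ranged over 176 to 321 CPM (median 239) at P6, 17.3 to 55.7 CPM (median 38.7) at P15 and 4.09 to 7.26 CPM (median 5.12) at 8 weeks and fell by 5.497 ± 0.14 (log2, FDR = 6.52e-24). Mki67, whose protein Ki-67 coats mitotic chromosomes and is the usual marker of cycling cells, ranged over 79.9 to 265 CPM (median 167) at P6, 8.30 to 44.5 CPM (median 24.9) at P15 and 0.938 to 6.87 CPM (median 3.43) at 8 weeks and fell by 5.40 ± 0.25 (FDR = 5.02e-17). Smc2 and Ncapg both belong to condensin, which compacts chromosomes. Smc2 ranged over 36.7 to 104 CPM (median 60.5) at P6, 2.67 to 21.2 CPM (median 13.7) at P15 and 2.44 to 14.7 CPM (median 9.99) at 8 weeks and fell by 2.62 ± 0.24 (FDR = 6.51e-08), to 15.2% of P6, whereas Ncapg kept 2.51%. Smc2 serves both condensin complexes and Ncapg 1 of them, and Smc2 over Ncapg per kilobase was 3.46 ± 0.440 at P6, 4.64 ± 1.28 at P15 and 30.5 ± 16.8 at 8 weeks.

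Both transcription factors that act on G2/M promoters were called lower. Foxm1 ranged over 72.2 to 92.7 CPM (median 83.1) at P6, 13.03 to 19.3 CPM (median 17.5) at P15 and 2.74 to 4.97 CPM (median 3.88) at 8 weeks and fell by 4.47 ± 0.08 (log2, FDR = 3.07e-27), in steps of -2.29 ± 0.07 and -2.18 ± 0.07. Mybl2 (B-MYB) ranged over 15.1 to 26.6 CPM (median 23.3) at P6, 2.01 to 5.54 CPM (median 2.72) at P15 and 0.717 to 2.11 CPM (median 1.18) at 8 weeks and fell by 4.12 ± 0.18 (FDR = 2.46e-17), most of it by P15, when it stood at 13.2% of its P6 mean. The 11 genes of the MuvB and DREAM complexes and their partners were called at about the share of all genes. At 8 weeks 1 of 11 was called lower (Tfdp1, -1.82 ± 0.05, against 12.4% of all genes) and 0 higher (11.5%). The next was Tfdp2 (-1.28 ± 0.16). Without a fold threshold 6 of the 11 were lower and 3 higher, against 36.6 and 37.8% of all genes.

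The 2 steps of the fall were compared directly by the contrast of the P6 to P15 change with the P15 to 8-week change, tested at FDR below 0.05 without a fold threshold. The intervals differ in length, so steps and not rates are compared, and both steps share the P15 mice. In 47 of 58 genes the steps were not told apart, and the median difference over the 58 was -0.05 on the log2 scale. The first step was the more negative in 9 genes, against 15.8% of all genes tested, and the second in 2, against 17.6%. The 9 were Bub1b, Mad2l1, Bub3, Cenpa, Incenp, Racgap1, Mybl2, Smc2 and Plk4, and the 2 were Ccnf and Kif22. The call of Racgap1 (difference -0.37, FDR = 0.0343) was lost with all 35 mice (FDR = 0.116), without the filter on low counts (0.0853), without P6 female 1 (0.0536) and with the microglia markers as a covariate (difference -0.17, FDR = 0.488). That of Bub1b (difference -0.54) was lost with all 35 mice (-0.48, FDR = 0.0769) and with the microglia covariate (-0.65, FDR = 0.0548). That of Ccnf (0.81) was lost with the microglia covariate (0.76, FDR = 0.0959), and that of Kif22 (0.70) with the microglia covariate (0.64, FDR = 0.144) and with library size scaling (0.58, FDR = 0.0662).

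In Plk4, Mad2l1 and Smc2 little of the fall came after P15. Plk4 changed by -1.97 ± 0.17 and then by -0.24 ± 0.16 (difference of steps -1.73, FDR = 3.18e-05), and Mybl2 by -2.94 ± 0.17 and then -1.18 ± 0.16 (difference -1.76, FDR = 1.36e-05). Mad2l1 changed by -2.08 ± 0.09 and then -0.57 ± 0.09, and Smc2 by -2.18 ± 0.23 and -0.43 ± 0.22. Ccnf showed the opposite order, -1.42 ± 0.15 and then -2.22 ± 0.16 (difference 0.81, FDR = 0.0148). The 27 genes of DNA replication, which act in S phase, had the more negative first step in 24 of 27 cases, against 15.8% of all genes, and the more negative second step in 0, with a median difference of -1.13. The lists were not tested against each other.

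**Figure D3:**
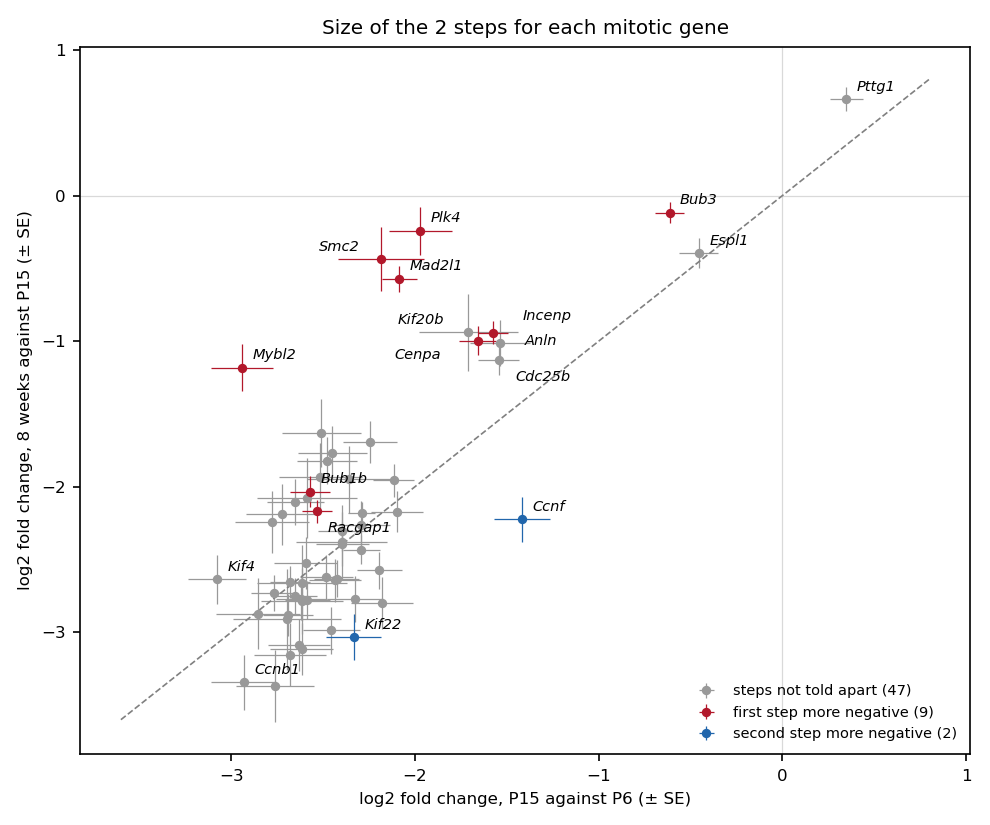
Log2 fold change from P6 to P15 (x axis) against that from P15 to 8 weeks (y axis) for the 58 mitotic genes, with standard errors as bars, the line of equal steps dashed and genes coloured by the test of the difference between steps. Most genes lie along the line at its lower end, and Plk4, Smc2, Mad2l1, Mybl2, Incenp, Cenpa and Bub3 lie above it.

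The level left at 8 weeks differed widely between genes. Of the 58 genes, 47 kept 1.29 to 7.99% of their P6 mean (median 3.03%), 8 kept 14.4 to 20.9% (Kif20b, Smc2, Mad2l1, Cdc25b, Cenpa, Anln, Incenp and Plk4), Espl1 and Bub3 kept 55.5 and 60.4%, and Pttg1 reached 199%. At P15 the 8 had stood at 21.05 to 34.7% of P6. Over the 58 genes the median residue was 3.64% (range over the 12 mice 2.85 to 4.14%), and the transcripts remained countable: 52 of 58 genes were above 3 counts in each of the 12 libraries at 8 weeks. The 6 that were not were Bub1, Cdc25c, Cenpk, Spc24, Ska1 and Ncapg, and for these the fold changes rest on a few counts. In CPM per kilobase of exon (RPKM), the highest at P6 were Ccnb2 (36.5) and Cdc20 (33.8), which stood at 0.698 and 1.02 at 8 weeks, when Pttg1 (14.3), Bub3 (9.19), Incenp (4.19) and Espl1 (3.64) led.

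Other genes of the same machinery were counted in the same fit. Among 28 other mitotic regulators 26 were called lower at 8 weeks, with a median residue of 5.02%, and the deepest were Kif18b, a kinesin of the spindle (-6.15 ± 0.24), and the kinase Pbk (-5.83 ± 0.16). Of 32 other centromere and kinetochore genes 22 were called lower, led by Kntc1 (-5.57 ± 0.20) and Cenph (-5.49 ± 0.22), with a median residue of 21.1%. Of 6 other condensin subunits 4 were called lower, Ncapd2 (-3.86 ± 0.10) and Ncapg2 (-2.63 ± 0.17) most. None of the 10 genes of cohesin, its loader and its regulators were called in edgeR's 2-fold test in either direction, with a median residue of 89.2%. Nor were any of the 15 genes of the anaphase-promoting complex (its subunits and the activator Fzr1), with a median residue of 77.7%. Without a fold threshold 4 cohesin genes were lower and 3 higher (7 at an unadjusted p under 0.05). Of the 15 genes of the anaphase-promoting complex 13 were lower and 0 higher (13 at an unadjusted p under 0.05). Of all genes 36.6% were lower and 37.8% higher. Rad21 (-0.86 ± 0.07) and Smc1a (-0.60 ± 0.13) were the lowest of the cohesin genes, and Anapc5 (-0.84 ± 0.05) and Anapc11 (-0.66 ± 0.10) of the subunits. In the gamma-tubulin ring 1 of 10 was called lower (Tubg1, -1.35 ± 0.11), near the 12.4% of all genes, and the next was Tubg2 (-1.10 ± 0.28). Without a fold threshold 5 of the 10 were lower and 2 higher. DNA replication genes were called lower in 25 of 27 cases, led by Mcm10 (-5.41 ± 0.16) and Orc1 (-4.797 ± 0.31), and kept a median of 16.2%.

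**Figure D4:**
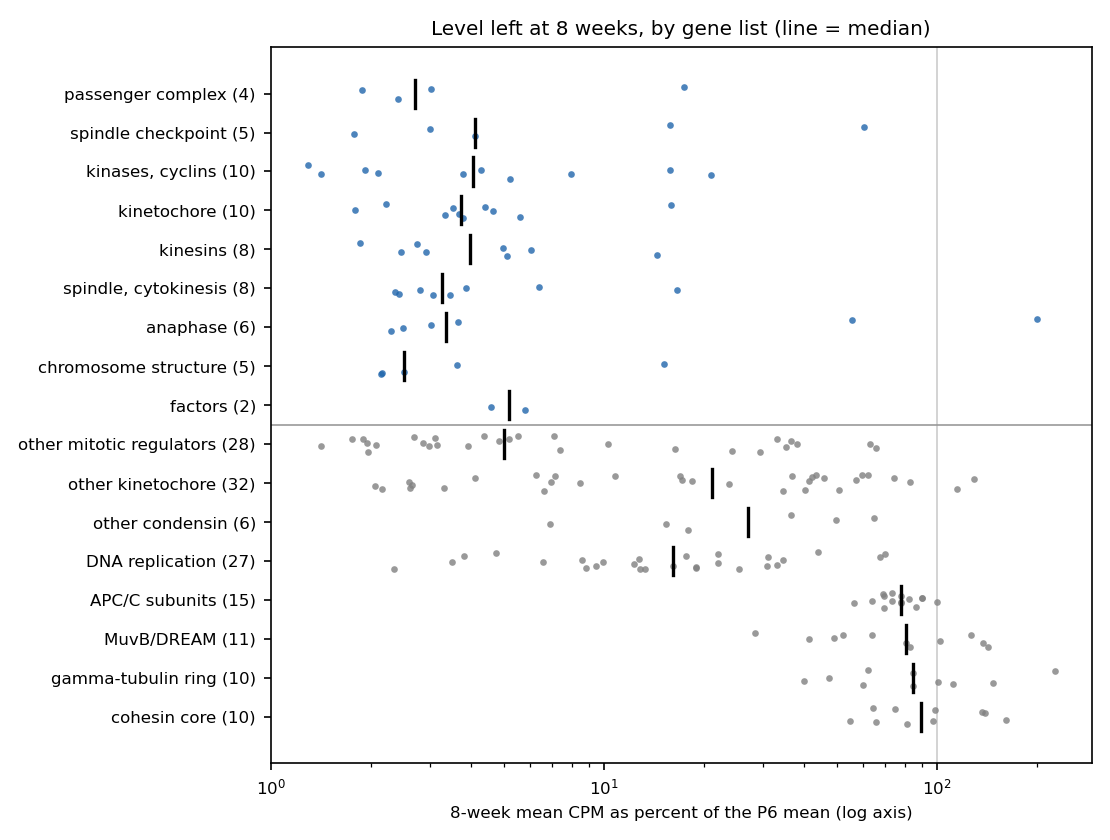
Mean CPM at 8 weeks as a percent of the P6 mean (log axis) for each gene, by role of the 58 mitotic genes (blue) and for 8 comparison lists (grey), with the number of genes in brackets and black lines at list medians. The medians of the mitotic roles lie between 2.51 and 5.19%. Those of APC/C subunits (with Fzr1), MuvB and DREAM, gamma-tubulin ring and cohesin (with its loader and regulators) lie between 77.7 and 89.2%.

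Males and females were not told apart in any of the 58 genes at P6, P15 or 8 weeks in edgeR's quasi-likelihood test without a fold threshold (0 of 58 at each age, where 0.0511, 0.0681 and 0.114% of all genes were called). At an unadjusted p under 0.05 the counts were 4, 16 and 7 of 58, where 7.1, 18.2 and 2.94% of all genes were, and without P15 male 1 the count at P15 was 5 (10.6% of all genes), and limma-voom with the 2-fold threshold also called 0 at each age. The smallest adjusted p was that of Foxm1 at 8 weeks (log2 fold change male against female -0.44 ± 0.10, FDR = 0.0876). The interaction of sex with age was called in 0 of 58 genes and in 0% of all genes, for P15 and for 8 weeks against P6, with 20 and 7 of the 58 at an unadjusted p under 0.05 (20.4 and 5.1% of all genes). Averaged over the 58 genes as log2 CPM, females and males stood at 5.13 and 5.29 at P6, at 3.001 and 2.79 at P15 (males 2.86 without male 1) and at 0.86 and 0.77 at 8 weeks.

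Some of the 58 genes varied far more between mice of 1 age than others. The coefficient of variation between mice at P6 ran from 6.45% (Bub3) to 42.5% (Kif20b), with a median of 12.999%, and over the 58 genes it was larger in transcripts that held less G and C and in longer ones (the genes share the same libraries). With GC percent the Spearman correlation was -0.61 at P6, -0.52 at P15 and -0.19 at 8 weeks (Pearson -0.57, -0.50 and -0.19), and with transcript length it was 0.43, 0.30 and -0.07 (Pearson 0.64, 0.44 and 0.02). GC percent and length were themselves correlated (Spearman -0.35), and their parts were not separated. Kif20b, Cenpf, Cenpe, Mki67 and Smc2 varied most at P6. Cenpf spanned 4.13-fold between P6 mice, Kif20b 3.93-fold and Mki67 3.31-fold, while Kif2c spanned 1.25-fold. The P15 mouse male 1 was the lowest P15 mouse for 24 of the 58 genes and the highest for 9: it stood at a median of -1.02 on the log2 scale from the P15 mean in the 29 genes of lower GC content and at 0.12 in the other 29, and at -0.98 in the 29 longer and 0.12 in the 29 shorter transcripts. Of the P15 mice it also had the lowest summed microglia (15863 CPM) and monocyte and macrophage markers (289 CPM) and the highest neuron (693 CPM), neural progenitor (845 CPM) and oligodendrocyte lineage markers (3235 CPM). P15 female 6 stood at 0.65 and 0.10 in the genes of lower and higher GC content. At P6 the deviation of a mouse correlated positively with GC content in all 4 females (Spearman 0.27 to 0.73) and negatively in all 6 males (-0.64 to -0.08), so that base composition and sex move together there, while with length the sign was negative in 3 of the 4 females and positive in all 6 males. Their part in the sex comparison was not tested. The log2 fold change from P6 to 8 weeks, negative for a fall, showed a Spearman correlation of -0.10 with GC content over the 58 genes. Without P15 male 1, left out after its values had been seen, 55, 46 and 55 genes were called lower in the 3 comparisons, as with it.

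**Figure D5:**
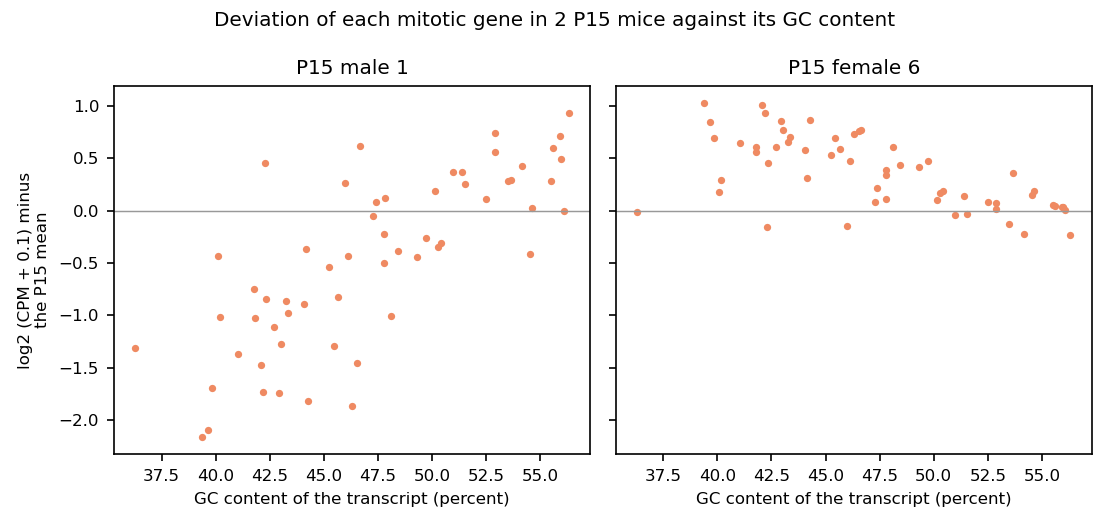
Deviation of each of the 58 mitotic genes from its P15 mean (log2 of CPM + 0.1, y axis) against the GC content of its longest coding transcript in percent (x axis), for P15 male 1 and P15 female 6. In male 1 the genes of low GC content lie far below 0, and in female 6 they lie above it.

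Markers of neural cells moved with age as well. All 9 neural progenitor markers were called lower at 8 weeks than at P6, where 12.4% of all genes tested were. Of the 8 markers of neural stem cells and granule precursors 7 were. Summed, the first list ran over 661 to 2037 CPM at P6, 124 to 845 at P15 and 89.0 to 206 at 8 weeks, and the second over 423 to 1052, 84.2 to 376 and 59.0 to 162. Atoh1, of the second list, was at 0 counts in each of the 12 libraries at 8 weeks. Its lowest mouse was also at 0 at P6 and at P15 (medians 2.69 and 0.138 CPM). Within P6, where the progenitor sum varied 3.08-fold between mice, the sum of the 58 mitotic genes varied 1.29-fold. The 2 mice with the lowest progenitor sums were males 5 and 1 (661 and 710 CPM). Their mitotic sums were 3235 and 3012 CPM, inside the range of the other 8 mice (2534 to 3269). The 2 with the highest progenitor sums, males 3 and 4 (2037 and 1972 CPM), had mitotic sums of 3133 and 3269 CPM. The P6 female that was left out had the highest progenitor sum of all (2315 CPM) and a mitotic sum of 1641 CPM, below every other P6 mouse. Of neuronal markers 3 of 6 and of oligodendrocyte lineage markers 3 of 7 were called lower. With the mean of the neuron and neural progenitor markers as a covariate, 52, 42 and 56 genes were called lower in the 3 comparisons, and with that of the microglia markers 49, 46 and 56. Kif20b, Ccnf and Anln were not called at P15 with either. Their log2 fold changes were -1.62 and -1.99 for Kif20b (-1.71 without), -1.37 and -1.47 for Ccnf (-1.42) and -1.29 and -1.62 for Anln (-1.54). The microglia marker mean did not overlap between P6 and the later ages, so fits with that covariate separate marker level and age poorly. The 9 monocyte and macrophage markers summed to 724 to 1577 CPM at P6, 289 to 1031 at P15 and 366 to 719 at 8 weeks, a sum in which Mrc1 alone held a mean of 585 CPM at P6 and 228 CPM at 8 weeks. Of the 9, 2 were called lower at 8 weeks than at P6 (Lyve1, -2.57, and Pf4, -1.56) and 2 higher (Ccr2, 3.05, and Ly6c2, 2.7002). Of all genes tested, 12.4% were called lower and 11.5% higher. The 5 erythroid markers summed to 1034 to 4049 CPM at P6, 2960 to 7484 at P15 and 722 to 3794 at 8 weeks. The part of these cells in the fall was not tested.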

How the data were processed

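Messenger RNA of 35 mice was sequenced as strand-specific libraries. The authors deposited raw counts per gene: per the study's methods, reads were aligned to GRCm38 with STAR and counted by strand with featureCounts. The submitters' processing notes for these samples also name fastp 0.20.0, without its role. The annotation release is not given in the sources used here. Symbols, exon lengths and transcript GC content (longest coding transcript) were taken from GENCODE M21. Exons of 3 of the 58 genes overlapped those of another gene on the same strand, over at most 2.50% of their bases (Foxm1).

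The P6 female taken to be the study's outlier was left out, which leaves 34 mice. The study's methods do not give the age or sex of its outlier. Genes that reached 0.5 CPM in 5 or more mice entered a fit with edgeR 4.0.16 (R 4.3.3; TMM scaling, robust quasi-likelihood fit, 1 mean per age and sex). Age contrasts averaged both sexes and were called by glmTreat beyond 2-fold at FDR below 0.05. The timing and sex contrasts used glmQLFTest. RPKM is CPM per kilobase of exon. A library at or under 3 counts was treated as at the floor, which covers counting error only. limma 3.58.1 and DESeq2 1.42.0 served as alternatives. The edgeR fit and its glmTreat calls for the oldest against the youngest age were tested on simulated counts. The other steps were not tested in that way.

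The 58 genes and all other lists were chosen with earlier results of these data known. Values in every age are given for the 2 largest and the smallest fall of each role and for any gene not called. Other lists are given by counts and medians with their 2 largest falls, and promoters for the genes with the largest and smallest fall and for Cdk1, Ccnb1, Ccnb2, Plk1 and Cdc20. The residue classes and promoter stretches were set after the values were seen.

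Mice carry replicate numbers in their labels, but no source ties equal numbers across ages.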

Additional observations from a re-analysis of the deposited data

Results flagged for a closer look

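In 17 of the 348 sets of 1 gene in 1 age and sex group, 1 mouse lay further from its group than Dixon's test allows at the 95% level. Chance flags about 1 in 20 sets. P15 male 1 accounts for 6 of them, each time as the lowest mouse: Mad2l1 (6.45 CPM), Plk4 (1.32 CPM), Kif11 (2.53 CPM), Kif23 (2.06 CPM), Ncapg (0.979 CPM) and Smc2 (2.67 CPM). The same mouse stood below the P15 mean in the genes of lower GC content and in the longer transcripts, and had the lowest microglia and the highest neural progenitor marker sums at P15. The part of these in the values was not tested.

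Low values at the other ages were Bub1 (0.0341 CPM) and Prc1 (0.683 CPM) in 8-week male 5, Ccnb1 in 8-week female 3 (0.204 CPM), Kif15 in 8-week female 5 (0.437 CPM) and 8-week male 4 (0.826 CPM), and Ube2c in 8-week female 2 (0.396 CPM). Kif15 was set apart in P15 female 1 (3.40 CPM) and Kif22 in P6 male 2 (37.0 CPM). High values were Kif20a in 8-week male 6 (2.23 CPM), Kif2c in P6 female 1 (32.7 CPM) and Anln in P6 male 5 (36.1 CPM).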

How the results depend on the processing

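Of the 3 age comparisons, the numbers of genes called lower were within 1.5 times the reported ones under each alternative run. They ranged over 49 to 57 of 58 (P15 against P6), 42 to 54 (8 weeks against P15) and 55 to 57 (8 weeks against P6), and with a minimum of 10 counts in every mouse they were 41, 32 and 41 of the 44 genes left. The 2 genes with the more negative second step became 1 with library size scaling (Kif22 no longer called) and 0 with the microglia markers as a covariate, and the cause was not tested; they became 3 with limma-voom (Ube2c added, FDR = 0.0356), with DESeq2 (Hmmr added, FDR = 0.0433) and without P15 male 1 (Hmmr added, FDR = 0.0382). Library size scaling moved the median of all genes by -0.13 at P15 and -0.14 at 8 weeks against P6. Genes with the more negative first step numbered 7 (all 35 mice) to 13 (library size scaling). Cenpk from P15 to 8 weeks (-1.63) was not called by limma-voom (-1.62, FDR = 0.402), by DESeq2 (-1.65, FDR = 0.166), with only the compared ages (-1.62, FDR = 0.0717) or with the neural markers as a covariate (-1.61, FDR = 0.194). DESeq2 also did not call Ccnf (-1.41, FDR = 0.0724) and Kif20b (-1.71, FDR = 0.0969) lower at P15. Leaving out each P6 female gave 54 to 55, 46 and 55 genes. No direction reversed. With the replicate number as a block, 55, 46 and 55 genes were called lower and 10 and 2 in the timing test. Equal numbers correlated above 0.1 in 27 of 80 pairs. Unequal numbers were not compared, so the check cannot tell whether equal numbers pair mice. At 8 weeks a floor of 3 counts, 0.0823 to 0.118 CPM, limits 6 of the 58 genes.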
